A study of Mus musculus with 18 samples.

Results

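The genes described here are 10 members of the ferroptosis and necroptosis machinery, chosen by name among the 56691 genes of the deposited table. Of these, 6 belong to ferroptosis (Gpx4, Acsl4, Aifm2, Slc3a2, Lpcat3 and Ptgs2) and 4 to necroptosis (Ripk1, Ripk3, Mlkl and Zbp1). All 10 were found in the table, and 9 passed the filter on low counts. The tissue was liver of wild-type C57BL/6 mice, with 6 libraries of total RNA in each of 3 groups. In the IR-Ori group the clips were placed and removed as in the IR group and the mice received oridonin, a plant diterpenoid, whose dose, route and time the labels do not state. In the IR group hemostatic clips on the portal triad made the median and left lobes ischemic for 1 h, followed by 6 h of reperfusion. Sham mice were anaesthetised and had a laparotomy with no clips. Age and sex are not stated in the labels, which also do not say that each library came from a separate animal, so the p-values below measure the spread between these libraries.

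Ferroptosis is an iron-dependent death in which polyunsaturated phospholipids of cell membranes are oxidised. ACSL4 and LPCAT3 place polyunsaturated fatty acids into phospholipids, GPX4 reduces the resulting lipid peroxides at the expense of glutathione, and the cystine from which glutathione is made enters through a transporter of which SLC3A2 is the heavy chain and SLC7A11 the transporting chain. Necroptosis is a lytic death in which the kinase RIPK3, engaged by RIPK1 below the TNF receptor or by ZBP1 bound to nucleic acid in the Z form, phosphorylates MLKL, which then breaches the plasma membrane. Both deaths have been studied in reperfused liver, where hepatocytes are known to hold little RIPK3.

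Total counts ran from 12770586 to 16536186 in IR-Ori livers, from 12449529 to 16625908 in IR livers and from 12755980 to 19798188 in sham livers. The libraries differed in the share of counts on the 37 mitochondrial genes, which was 14.1% to 32.0% in IR-Ori livers, 6.52% to 42.9% in IR livers and 10.3% to 42.8% in sham livers. Mean shares were 27.1% ± 6.60 in IR-Ori livers, 19.2% ± 12.99 in IR livers and 21.9% ± 12.9 in sham livers (SD, n = 6 each). An exact two-sided permutation test of these means gave p = 0.712 for IR against sham and p = 0.212 for IR-Ori against IR, and the smallest p the design allows is 0.002165. Hepatocyte markers were present in every library, with a summed level of 27290 to 42414 FPKM in IR-Ori livers, 24191 to 34188 FPKM in IR livers and 14337 to 48848 FPKM in sham livers. FPKM, made by the authors, is the count of a gene per kilobase of its exons and of the library total, mitochondrial counts included, so it compares genes within a library per length. Fold changes and adjusted p-values below come from edgeR's quasi-likelihood test on the deposited counts with Benjamini-Hochberg adjustment over 14595 genes, and a gene is called where the adjusted p is under 0.05.

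In IR livers Slc3a2 and Mlkl rose relative to sham livers, and they were the members called, 2 of 9 tested, both higher. Over all tested genes 7.89% were called in this comparison, 5.52% higher and 2.36% lower. In IR-Ori livers Slc3a2 was lower than in IR livers and was the only member called, 1 of 9, where 3.6% of all tested genes were called and 3.01% were called lower. Mlkl missed the threshold in that comparison with an adjusted p of 0.0542. Between IR-Ori and sham livers 0 of 9 members were called, and edgeR called 0.0% of all tested genes, with 1460 genes at an unadjusted p under 0.05 and 38 genes (0.261%) called by DESeq2. Ptgs2 could not be tested in the same fit because it had at least 10 counts in only 5 libraries, all of them from IR livers. Since the 2 comparisons with IR share the 6 IR libraries, an increase in IR and a decrease with oridonin are not independent of each other.

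**Figure D1:**
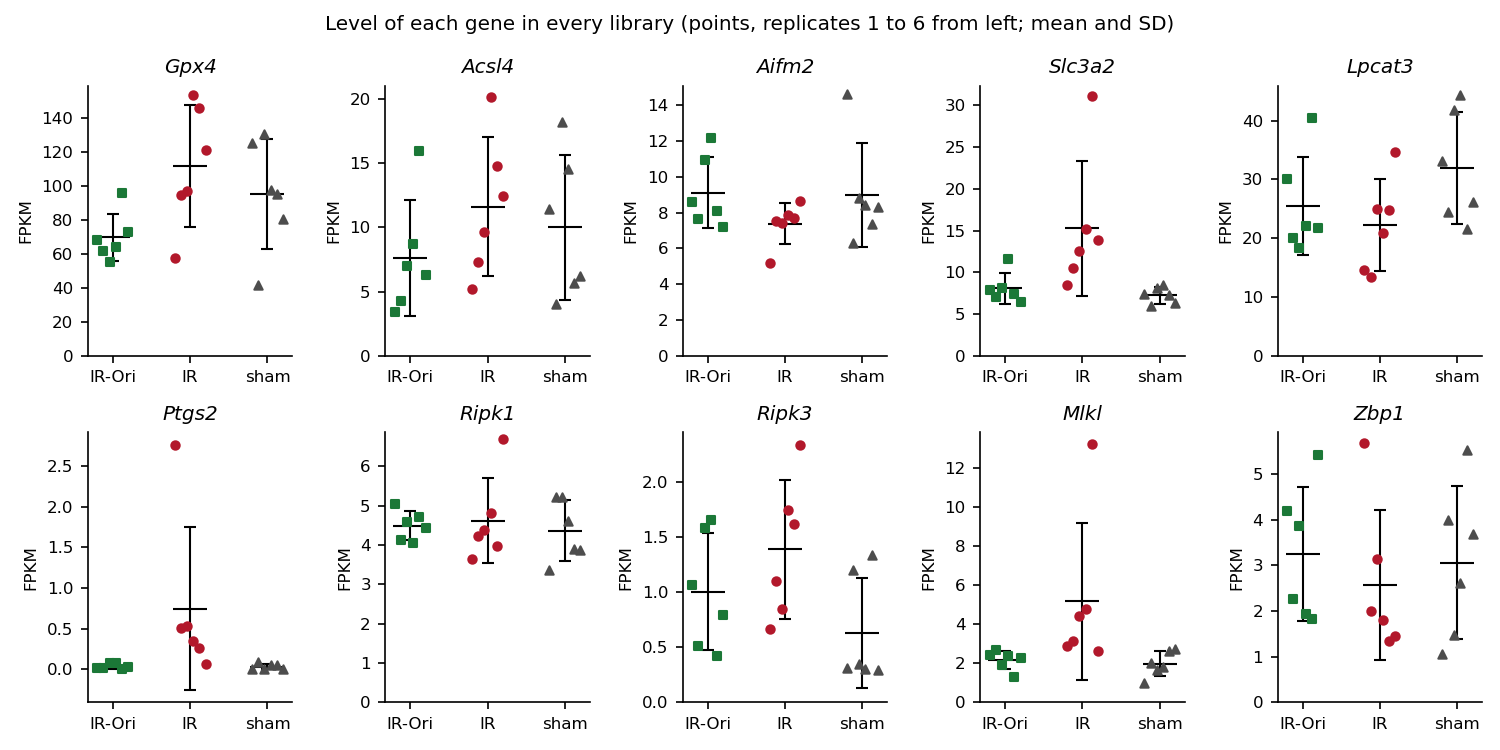
Level of each of the 10 genes in FPKM (vertical axis, linear, a separate scale per gene) in IR-Ori, IR and sham livers. Points are the 6 libraries of a group, replicates 1 to 6 from left to right, and black bars are the mean and SD, which extends below 0 for Ptgs2. Slc3a2 and Mlkl each have 1 IR library far above the others, at 31.07 and 13.22 FPKM, and the groups overlap for every gene.

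Slc3a2 (ENSMUSG00000010095, GRCm39 chromosome 19, 8684246 to 8700733, minus strand) encodes the CD98 heavy chain, which carries cystine and large neutral amino acid transporters to the cell surface. Its level was 6.41, 7.66 and 11.64 FPKM (lowest, median and highest) in IR-Ori livers, 8.51, 13.2 and 31.07 FPKM in IR livers, and 5.98, 7.37 and 8.51 FPKM in sham livers. All IR libraries lay above every sham library except for a tie at 8.51 FPKM between the lowest IR and the highest sham library, and 34 of the 36 pairs of an IR-Ori and an IR library had the lower value in IR-Ori. Slc3a2 averaged 15.3 ± 8.09 FPKM in IR livers and 7.27 ± 0.996 FPKM in sham livers (SD, n = 6 each), a fold of 1.94 and a log2 fold change of 0.95 ± 0.21 (SE) with an edgeR adjusted p of 0.0109. It averaged 8.10 ± 1.84 FPKM in IR-Ori livers, 0.572 times the level in IR livers on the scale of the fit, with a log2 fold change of -0.81 ± 0.21 (SE) and an edgeR adjusted p of 0.0393. Against sham livers the IR-Ori log2 fold change was 0.15 ± 0.21 (SE) with an edgeR adjusted p of 0.774, which does not show that the 2 groups were alike. The increase in IR stayed called without any single library and was 0.73 on the log2 scale without IR replicate 5. The decrease with oridonin was not called when any of IR-Ori replicates 1, 2, 3, 5 and 6 or IR replicates 4, 5 and 6 was left out, with a log2 fold change of -0.58 and an edgeR adjusted p of 0.114 without IR replicate 5. Since these are bulk samples, fewer cells of a type and less RNA per cell cannot be told apart here or in the results below.

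The partner of SLC3A2 in the cystine transporter, encoded by Slc7a11, had a very low level in this tissue. Its level was 0, 0 and 0.04 FPKM (lowest, median and highest) in IR-Ori livers, 0.09, 0.195 and 0.77 FPKM in IR livers, and 0, 0 and 0.02 FPKM in sham livers. In counts this was at most 9 per library in IR-Ori livers, 18 to 155 in IR livers and at most 6 in sham livers, so the IR libraries did not overlap with either other group. Over all tested genes, 2.04% were higher without overlap in IR than in sham livers and 1.1% were lower without overlap in IR-Ori than in IR livers. The log2 fold change of Slc7a11 was 5.12 ± 0.86 (SE) in IR against sham livers (edgeR adjusted p = 0.0021) and -4.74 ± 0.84 (SE) in IR-Ori against IR livers (edgeR adjusted p = 0.0058). Without single libraries these values ran from 4.72 to 6.04 and from -6.23 to -4.33. Because only IR libraries had 10 counts or more, Slc7a11 passed the filter through the group in which it is high, so its folds and p-values are a description here and in the counts below. Per kilobase of exon, Slc7a11 stood at a median of 0 times the level of Slc3a2 in IR-Ori livers, 0.0207 times in IR livers and 0 times in sham livers.

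The promoters of the genes that code for the transporter are shown because both transcripts had their highest mean level in IR livers. Each sequence runs 5′ to 3′ over 250 bases before and 50 bases after the annotated start of the gene, from RefSeq on build GRCm38.p6, an older build than that of the counts. Slc3a2 is at chr19:8713848-8714147 and Slc7a11 at chr3:50443564-50443863, both on the minus strand. Capitals mark the letters TGATGNAA on either strand, the element bound by CHOP and ATF4 in the response to amino acid shortage, a search added after the values were seen.
Slc3a2: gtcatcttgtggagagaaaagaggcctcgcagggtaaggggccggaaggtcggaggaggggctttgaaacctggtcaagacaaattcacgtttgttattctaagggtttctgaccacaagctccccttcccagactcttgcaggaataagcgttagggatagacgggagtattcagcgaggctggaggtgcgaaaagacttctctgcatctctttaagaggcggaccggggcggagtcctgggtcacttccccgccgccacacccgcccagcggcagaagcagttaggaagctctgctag
Slc7a11: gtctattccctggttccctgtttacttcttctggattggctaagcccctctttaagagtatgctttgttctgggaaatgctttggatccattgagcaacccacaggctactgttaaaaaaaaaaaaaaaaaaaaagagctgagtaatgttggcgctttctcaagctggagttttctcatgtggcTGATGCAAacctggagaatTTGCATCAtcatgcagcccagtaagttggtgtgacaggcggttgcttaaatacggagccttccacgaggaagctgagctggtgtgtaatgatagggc
Slc7a11 held these letters at bases -66 to -59 and, on the other strand, at -47 to -40 relative to the start, and the Slc3a2 window held none. The letters occur in 3.97% of 32851 promoters of the same length. The AP-1 letters TGANTCA (7.81% of promoters), the antioxidant response element TGACNNNGC (12.4%) and the TATA letters TATAAA (13.6%) were in the window of none of the 9 members with a promoter in the table, on either strand.

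Among 10 other genes of cystine import and glutathione turnover, 9 were tested, 3 rose in IR livers and the same 3 were lower in IR-Ori livers, namely Slc7a11, which is counted as a description, Gclc and Chac1. Gclc, the catalytic subunit of the rate-limiting enzyme of glutathione synthesis, averaged 75.9 ± 23.3 FPKM in IR-Ori livers, 299 ± 276 FPKM in IR livers and 72.8 ± 35.8 FPKM in sham livers (SD, n = 6 each). Its log2 fold change was 1.88 ± 0.42 (SE) in IR against sham livers and -1.82 ± 0.42 (SE) in IR-Ori against IR livers, with edgeR adjusted p of 0.0107 and 0.0224. Chac1 encodes an enzyme that degrades glutathione. It averaged 1.97 ± 1.45 FPKM in IR-Ori livers, 15.2 ± 18.8 FPKM in IR livers and 1.68 ± 0.849 FPKM in sham livers (SD, n = 6 each). The fit gave Chac1 a log2 fold change of 3.16 ± 0.68 (SE) in IR and -2.98 ± 0.67 (SE) with oridonin, with edgeR adjusted p of 0.0086 and 0.0208. Genes of making and of breaking down glutathione are thus both among the 3. DESeq2, which called 9.16% of all genes in IR-Ori against IR livers, also called Gsr, the glutathione reductase, lower there. The median log2 fold change over the 9 was 0.18 in IR against sham livers and -0.77 in IR-Ori against IR livers, where the medians over all genes were 0.00 and -0.00. With the mitochondrial share as a covariate the medians over the 9 were -0.12 and -0.16, and those over all genes 0.02 and 0.01. In that fit only Slc7a11 of the 9 was called lower with oridonin. With oridonin the call of Gclc was lost without IR-Ori replicate 1 or 2 or IR replicate 4 or 5 (edgeR adjusted p up to 0.0637), and that of Chac1 without IR-Ori replicate 3 or 6 or IR replicate 4 or 6 (up to 0.0704). IR replicate 6 held much of the change of Chac1, which without it was 2.07 in IR and -1.89 with oridonin on the log2 scale.

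Gpx4 (ENSMUSG00000075706, GRCm39 chromosome 10, 79883000 to 79892273, plus strand), the peroxidase that reduces phospholipid hydroperoxides, had the highest level of the 10 genes in each of the 18 libraries. It stood at 55.53, 66.2 and 95.77 FPKM (lowest, median and highest) in IR-Ori livers, 57.68, 109 and 153.29 FPKM in IR livers, and 41.74, 96.2 and 130.55 FPKM in sham livers. The log2 fold change was 0.14 ± 0.24 (SE) in IR against sham livers and -0.60 ± 0.24 (SE) in IR-Ori against IR livers, with edgeR adjusted p of 0.764 and 0.140. The value was lower in IR-Ori in 30 of the 36 pairs of libraries with IR. With the mitochondrial share as a covariate the second log2 fold change was -0.33, with an edgeR adjusted p of 0.236. The pseudogene Gpx4-ps2 stood at a median of 0.228 times the FPKM of Gpx4 in IR-Ori livers, 0.263 times in IR livers and 0.246 times in sham livers. Another pseudogene, Gpx4-ps1, had a median of at most 0.0021 times in a group. Reads may have been split between Gpx4 and Gpx4-ps2, which was not tested, so the level of Gpx4 is uncertain.

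Aifm2 (ENSMUSG00000020085, GRCm39 chromosome 10, 61551042 to 61575039, plus strand) encodes FSP1, which reduces coenzyme Q at the plasma membrane and holds back lipid peroxidation without GPX4. It averaged 9.10 ± 1.98 FPKM in IR-Ori livers, 7.39 ± 1.17 FPKM in IR livers and 8.97 ± 2.9 FPKM in sham livers (SD, n = 6 each). The log2 fold change was -0.35 ± 0.20 (SE) in IR against sham and 0.36 ± 0.20 (SE) in IR-Ori against IR livers, with edgeR adjusted p of 0.308 and 0.273. Of 8 other genes of quinone and pterin reduction, all tested, 1 fell in IR livers and none was called in IR-Ori against IR livers. This was Pts, which makes a precursor of the antioxidant tetrahydrobiopterin, with a log2 fold change of -0.74 ± 0.16 (SE) in IR and an edgeR adjusted p of 0.0082. In IR-Ori against IR livers Pts was called higher in DESeq2 (0.53 on the log2 scale, adjusted p = 0.0133) and, in edgeR, without IR replicate 3 (0.58, adjusted p = 0.0451). Pts averaged 4.85 ± 0.897 FPKM in IR livers and 7.69 ± 1.33 FPKM in sham livers (SD, n = 6 each). Gch1, the rate-limiting enzyme of the same route, had a log2 fold change of 0.14 ± 0.51 (SE) in IR against sham livers and an edgeR adjusted p of 0.899.

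Acsl4 (ENSMUSG00000031278, GRCm39 chromosome X, 141100989 to 141173531, minus strand), the ligase that activates arachidonic and adrenic acid, varied widely inside each group. Its level was 3.44, 6.66 and 15.91 FPKM (lowest, median and highest) in IR-Ori livers, 5.22, 11.1 and 20.14 FPKM in IR livers, and 4.0, 8.80 and 18.22 FPKM in sham livers. The groups covered nearly the same range, and the log2 fold changes of 0.13 ± 0.39 (SE) in IR against sham and -0.51 ± 0.39 (SE) in IR-Ori against IR livers had edgeR adjusted p of 0.878 and 0.416. Lpcat3 (ENSMUSG00000004270, GRCm39 chromosome 6, 124639990 to 124681381, plus strand), the acyltransferase that follows it, had the second highest mean level of the members. It averaged 25.5 ± 8.37 FPKM in IR-Ori livers, 22.3 ± 7.82 FPKM in IR livers and 31.9 ± 9.49 FPKM in sham livers (SD, n = 6 each). Its log2 fold change was -0.57 ± 0.25 (SE) in IR against sham livers with an edgeR adjusted p of 0.178, and with the mitochondrial share as a covariate it was -0.63 with an edgeR adjusted p of 0.0434. In IR-Ori against IR livers it was 0.23 ± 0.25 (SE) with an edgeR adjusted p of 0.596.

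Of 17 other genes of lipid remodelling and oxidation, 13 were tested, 3 rose in IR livers and 2 of these were lower in IR-Ori livers. The rise of Sat1, the rate-limiting enzyme of polyamine breakdown, had a log2 fold change of 2.15 ± 0.39 (SE) in IR (edgeR adjusted p = 0.0033), with -1.66 ± 0.39 (SE) in IR-Ori against IR livers (edgeR adjusted p = 0.0241). Alox5ap, which presents arachidonic acid to a lipoxygenase in myeloid cells, averaged 0.742 ± 0.200 FPKM in IR-Ori livers, 2.51 ± 1.66 FPKM in IR livers and 0.700 ± 0.200 FPKM in sham livers (SD, n = 6 each). Both its comparisons were called, with log2 fold changes of 1.70 ± 0.36 and -1.63 ± 0.36 (SE) and edgeR adjusted p of 0.0086 and 0.0200. Alox12, a lipoxygenase of platelets, rose by 2.23 ± 0.60 (SE) on the log2 scale in IR livers (edgeR adjusted p = 0.0268), with 10 to 41 counts per library in IR and 1 to 12 in sham livers. IR-Ori libraries held 1 to 24 counts. Alox12 may thus have passed the filter through the group in which it is high, so its fold and p-value are a description here and in the counts below. The call of Alox12 was lost without any of IR replicates 4 to 6 and sham replicates 1 to 4 (edgeR adjusted p up to 0.0708). With oridonin, the call of Alox5ap was lost without IR-Ori replicate 1 or 6 or IR replicate 4 or 5 (up to 0.0669), and that of Sat1 without IR-Ori replicate 1, 2 or 6 or IR replicate 4, 5 or 6 (up to 0.0658). Both were also lost in limma on log2(FPKM + 1), with adjusted p of 0.0531 for Alox5ap and 0.0663 for Sat1. In edgeR with the replicate number as a block they had adjusted p of 0.0675 and 0.0689.

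Ptgs2 (ENSMUSG00000032487, GRCm39 chromosome 1, 149975782 to 149983978, plus strand) encodes the inducible cyclooxygenase, whose transcript is widely read as a marker of ferroptosis and which also rises in inflammation. Its level was 0, 0.025 and 0.08 FPKM (lowest, median and highest) in IR-Ori livers, 0.07, 0.43 and 2.76 FPKM in IR livers, and 0, 0.03 and 0.09 FPKM in sham livers. In counts, the 6 libraries summed to 15 in IR-Ori livers, 324 in IR livers and 14 in sham livers, and IR replicate 1 alone held 207 of the 324. The lowest IR library, with 5 counts, lay inside the range of the other groups, and the remaining 5 lay above it. With no filter on low counts, edgeR gave a log2 fold change of 4.59 ± 0.83 (SE) in IR against sham livers (adjusted p = 0.0013) and -4.37 ± 0.82 (SE) in IR-Ori against IR livers (adjusted p = 0.0038). On the same genes limma on log2(FPKM + 1) gave adjusted p of 0.151 and 0.204, so the call depends on the fit used. The added 1 is larger than the Ptgs2 level of every library but IR replicate 1. The parts of this transformation and of the test in the difference were not separated. Because the gene passes a filter only through the group in which it is high, its folds and p-values are a description. The promoter of Ptgs2 is shown because its transcript had the largest ratio of summed counts of the members. It lies at chr1:150099781-150100080 on the plus strand of GRCm38.p6, and capitals mark the core of the cAMP response element, TGACGT on either strand, which is in 7.51% of promoters.
Ptgs2: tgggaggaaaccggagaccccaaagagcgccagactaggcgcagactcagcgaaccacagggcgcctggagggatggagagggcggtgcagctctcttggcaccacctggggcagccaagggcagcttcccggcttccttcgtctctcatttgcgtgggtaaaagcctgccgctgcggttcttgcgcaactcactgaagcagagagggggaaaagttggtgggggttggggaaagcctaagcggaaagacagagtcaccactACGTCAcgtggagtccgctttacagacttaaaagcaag
The match stood at bases 12 to 17 after the start, on the strand opposite to the one printed. Promoter windows of Gpx4, Ripk1 and Acsl4 also held these letters.

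Iron handling, the source of the reactive iron in ferroptosis, had 1 call in edgeR. Of 14 listed genes 13 were tested, Hmox1 rose in IR livers and none was called in IR-Ori against IR livers. Hmox1, the heme oxygenase that frees iron from heme, averaged 33.3 ± 26.4 FPKM in IR-Ori livers, 143 ± 173 FPKM in IR livers and 13.6 ± 12.9 FPKM in sham livers (SD, n = 6 each). It had a log2 fold change of 3.21 ± 0.71 (SE) in IR (edgeR adjusted p = 0.0103) and of -1.88 ± 0.67 (SE) in IR-Ori against IR livers (edgeR adjusted p = 0.107). Without single libraries its log2 fold change in IR ran from 2.44 (without IR replicate 5) to 3.85 (without sham replicate 3), and that with oridonin from -2.21 (without IR-Ori replicate 3) to -1.12 (without IR replicate 5). DESeq2 called Hmox1 (adjusted p = 0.0371) and the iron chaperone Pcbp1 lower in IR-Ori than in IR livers, and Slc11a2, an iron transporter, higher and Aco1, an iron-sensing aconitase, lower in IR than in sham livers. Fth1, the ferritin heavy chain, had log2 fold changes of 0.72 ± 0.38 and -1.03 ± 0.38 (SE) in these comparisons, with edgeR adjusted p of 0.255 and 0.115. The transferrin receptor Tfrc, the ferritin light chain Ftl1 and the ferritin receptor Ncoa4 had log2 fold changes of -0.08, 0.14 and 0.29 in IR against sham livers, with edgeR adjusted p of 0.913, 0.732 and 0.720. Over the 4 ferroptosis lists together, 43 of 49 genes were tested, with Slc7a11 and Alox12 counted. In IR livers 7 rose and 1 fell, where 5.52% of all genes were called higher and 2.36% lower. In IR-Ori livers 5 were lower and 0 higher than in IR livers, where 3.01% of all genes were called lower and 0.596% higher, and 0 were called between IR-Ori and sham livers. With the mitochondrial share as a covariate, 2 of the 5, Slc7a11 and Alox5ap, were called lower with oridonin.

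**Figure D2:**
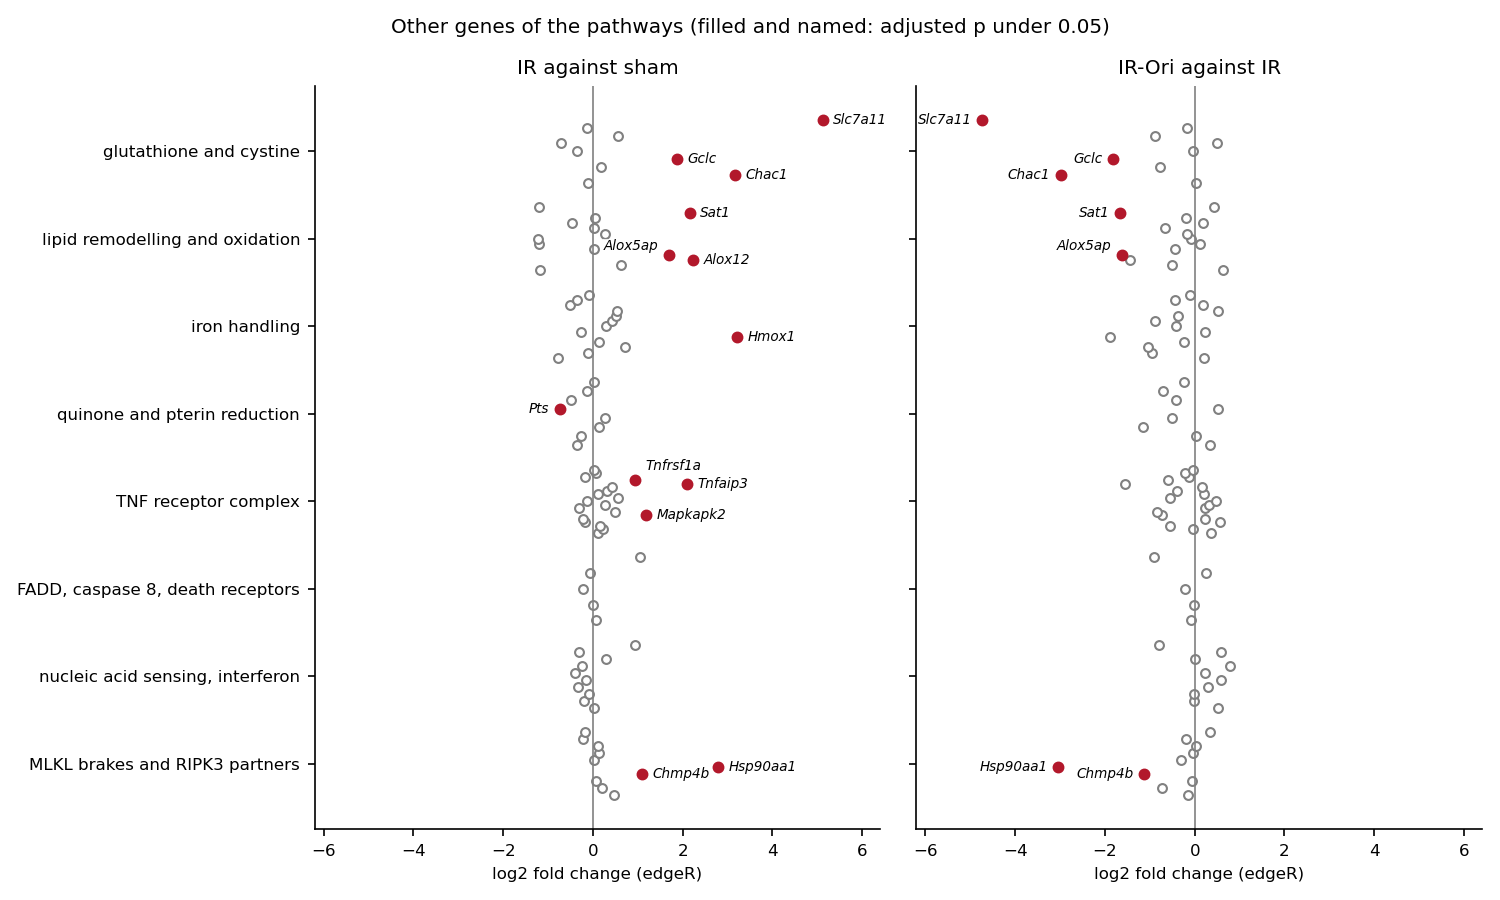
Log2 fold change (horizontal axis, edgeR) of the other tested genes of the ferroptosis lists (upper 4 rows) and the necroptosis lists (lower 4 rows) in IR against sham livers (left) and IR-Ori against IR livers (right). Each point is a gene, spread vertically only for display. Filled and named genes have an adjusted p under 0.05, 13 in the left panel and 7 in the right, and the right panel has no called gene above 0.

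Mlkl (ENSMUSG00000012519, GRCm39 chromosome 8, 112038429 to 112064809, minus strand), the pseudokinase that carries out necroptosis, had the largest called change of the members. Its level was 1.31, 2.34 and 2.67 FPKM (lowest, median and highest) in IR-Ori livers, 2.63, 3.79 and 13.22 FPKM in IR livers, and 1.02, 1.91 and 2.72 FPKM in sham livers. IR replicate 5 stood far above the other IR libraries, and the value was higher in IR in 34 of the 36 pairs with sham. Mlkl averaged 5.18 ± 4.03 FPKM in IR livers and 1.98 ± 0.638 FPKM in sham livers (SD, n = 6 each), a fold of 2.35 and a log2 fold change of 1.23 ± 0.32 (SE) with an edgeR adjusted p of 0.0227. Leaving out IR replicate 5 gave 0.83 on the log2 scale with an edgeR adjusted p of 0.0744, and the call was also lost without sham replicate 1 (0.0548) or sham replicate 3 (0.0506). In IR-Ori livers Mlkl averaged 2.17 ± 0.486 FPKM (SD, n = 6), and against IR livers the log2 fold change was -1.11 ± 0.32 (SE) with an edgeR adjusted p of 0.0542. The value was lower in IR-Ori in 35 of 36 pairs with IR, and the comparison was past the threshold in DESeq2 (adjusted p = 0.0191) and, in edgeR, without IR replicate 1 (0.0435) or IR replicate 2 (0.0333). Against sham livers the IR-Ori log2 fold change was 0.12 ± 0.32 (SE) with an edgeR adjusted p of 0.892.

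The promoter of Mlkl is shown as that of the called necroptosis gene. It lies at chr8:111338156-111338455 on the minus strand of GRCm38.p6, and it has no capitals because neither the letters named above nor those of the cAMP response element core were in it. No match says only that these letters are not in the window.
Mlkl: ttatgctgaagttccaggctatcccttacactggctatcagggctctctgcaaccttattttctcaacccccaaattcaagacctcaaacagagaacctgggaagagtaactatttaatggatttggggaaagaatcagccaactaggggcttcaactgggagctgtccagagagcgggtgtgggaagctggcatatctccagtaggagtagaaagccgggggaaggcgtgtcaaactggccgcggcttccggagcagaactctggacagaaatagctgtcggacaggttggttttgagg

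Upstream of MLKL, neither kinase was called. Ripk1 (ENSMUSG00000021408, GRCm39 chromosome 13, 34186346 to 34221130, plus strand) averaged 4.49 ± 0.372 FPKM in IR-Ori livers, 4.62 ± 1.09 FPKM in IR livers and 4.36 ± 0.772 FPKM in sham livers (SD, n = 6 each). Its log2 fold change was 0.04 ± 0.18 (SE) in IR against sham and -0.01 ± 0.18 (SE) in IR-Ori against IR livers, with edgeR adjusted p of 0.915 and 0.978. Ripk3 (ENSMUSG00000022221, GRCm39 chromosome 14, 56022452 to 56026322, minus strand) was low throughout, with 11 to 84 counts per library. Its level was 0.42, 0.93 and 1.66 FPKM (lowest, median and highest) in IR-Ori livers, 0.67, 1.36 and 2.34 FPKM in IR livers, and 0.29, 0.33 and 1.34 FPKM in sham livers. Among sham livers, replicates 2 and 5 lay at 1.20 and 1.34 FPKM, inside the IR range, and the other 4 lay at 0.29 to 0.35 FPKM. The log2 fold change of Ripk3 was 1.08 ± 0.47 (SE) in IR against sham livers with an edgeR adjusted p of 0.166, and -0.40 ± 0.46 (SE) in IR-Ori against IR livers with an edgeR adjusted p of 0.607. Per kilobase of exon, Ripk3 stood at a median of 0.196 times the level of Ripk1 in IR-Ori livers, 0.305 times in IR livers and 0.0837 times in sham livers.

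Of 19 other genes of the TNF receptor complex, all tested, 3 rose in IR livers and edgeR called none in IR-Ori against IR livers. Tnfrsf1a, the TNF receptor itself, had a log2 fold change of 0.93 ± 0.22 (SE) in IR (edgeR adjusted p = 0.0136), Tnfaip3, an enzyme that edits ubiquitin and restrains the complex, 2.10 ± 0.48 (SE, edgeR adjusted p = 0.0124), and Mapkapk2, a kinase that phosphorylates RIPK1, 1.18 ± 0.32 (SE, edgeR adjusted p = 0.0296). The call of Mapkapk2 was lost without any of IR replicates 4 to 6 and sham replicates 2 to 6 (edgeR adjusted p up to 0.0763). In IR-Ori against IR livers DESeq2 called Tnfaip3 (adjusted p = 0.0198) and Otulin, which removes linear ubiquitin chains, lower. In edgeR Tnfaip3 was called there without IR-Ori replicate 3 or any of IR replicates 1 to 3 (adjusted p of 0.0391 to 0.0472). Birc3, a ubiquitin ligase of RIPK1, and the ligand Tnf had log2 fold changes of 0.23 ± 0.18 and 0.91 ± 0.60 (SE) in IR against sham livers, with edgeR adjusted p of 0.479 and 0.383. None of the 5 genes of the switch between apoptosis and necroptosis was called in either comparison. In IR against sham livers, Casp8, the protease that cleaves RIPK1 and RIPK3, had a log2 fold change of 0.07 ± 0.20 (SE), its adaptor Fadd -0.23 ± 0.38 (SE), its partner Cflar 0.00 ± 0.16 (SE) and the death receptor Fas -0.06 ± 0.22 (SE), with edgeR adjusted p of 0.868, 0.762, 1.000 and 0.899.

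Of 10 genes that hold back MLKL or act with RIPK3, all tested, 2 rose in IR livers and the same 2 were lower in IR-Ori livers. Hsp90aa1, a stress-induced chaperone that keeps the RIPK kinases folded, averaged 43.6 ± 20.7 FPKM in IR-Ori livers, 374 ± 321 FPKM in IR livers and 52.4 ± 19.0 FPKM in sham livers (SD, n = 6 each). The log2 fold change of Hsp90aa1 was 2.78 ± 0.50 (SE) in IR and -3.05 ± 0.51 (SE) with oridonin, with edgeR adjusted p of 0.0032 and 0.0043. Chmp4b, a subunit of the ESCRT-III machinery that sheds membrane damaged by MLKL, averaged 16.4 ± 3.02 FPKM in IR-Ori livers, 38.6 ± 16.6 FPKM in IR livers and 16.8 ± 5.96 FPKM in sham livers (SD, n = 6 each). It had log2 fold changes of 1.10 ± 0.27 and -1.13 ± 0.27 (SE), with edgeR adjusted p of 0.0158 and 0.0248, and the call with oridonin was lost without IR-Ori replicate 1 or 6 or IR replicate 4, 5 or 6 (up to 0.0771). Over the 4 necroptosis lists together, 44 of 44 genes were tested. In IR livers 5 rose and 0 fell, where 5.52% of all genes were called higher, and in IR-Ori livers 2 were lower and 0 higher than in IR livers, where 3.01% of all genes were called lower. Between IR-Ori and sham livers 0 were called. Of 543 genes that the deposited table annotates with the KEGG pathway of necroptosis, pseudogenes such as Vdac3-ps1 included, 130 were tested. In IR against sham livers 13 were higher and 3 lower, where 5.52% and 2.36% of all genes were. In IR-Ori against IR livers 0 were higher and 12 lower, where 0.596% and 3.01% of all genes were. Of 87 genes annotated with the pathway of ferroptosis 45 were tested. In IR against sham livers 5 of them were higher and 0 lower, and in IR-Ori against IR livers 0 were higher and 5 lower.

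Zbp1 (ENSMUSG00000027514, GRCm39 chromosome 2, 173048405 to 173060716, minus strand), the sensor of Z-form nucleic acid and an interferon-induced gene, was not called in any comparison. Its level was 1.83, 3.06 and 5.41 FPKM (lowest, median and highest) in IR-Ori livers, 1.34, 1.91 and 5.67 FPKM in IR livers, and 1.06, 3.16 and 5.53 FPKM in sham livers. The ranges nearly coincide, and the log2 fold change was -0.22 ± 0.45 (SE) in IR against sham and 0.28 ± 0.45 (SE) in IR-Ori against IR livers, with edgeR adjusted p of 0.817 and 0.720. Of 10 other genes of nucleic acid sensing and interferon signalling, all tested, 0 were called in either comparison. Tlr3, a receptor for double-stranded RNA, and its adaptor Ticam1 had log2 fold changes of -0.30 ± 0.27 and 0.29 ± 0.23 (SE) in IR against sham livers, with edgeR adjusted p of 0.536 and 0.478. Adar, which edits double-stranded RNA, and the transcription factor Irf1 had 0.01 ± 0.28 and -0.32 ± 0.29 (SE), with edgeR adjusted p of 0.985 and 0.536. Among 16 interferon-stimulated genes, all tested, 1 rose in IR livers (Rsad2, an antiviral radical enzyme, 1.82 ± 0.50 on the log2 scale with SE, edgeR adjusted p = 0.0299), and the call was lost without any of IR replicates 4 to 6 and sham replicates 1, 2, 3, 5 and 6 (up to 0.0866).

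**Figure D3:**
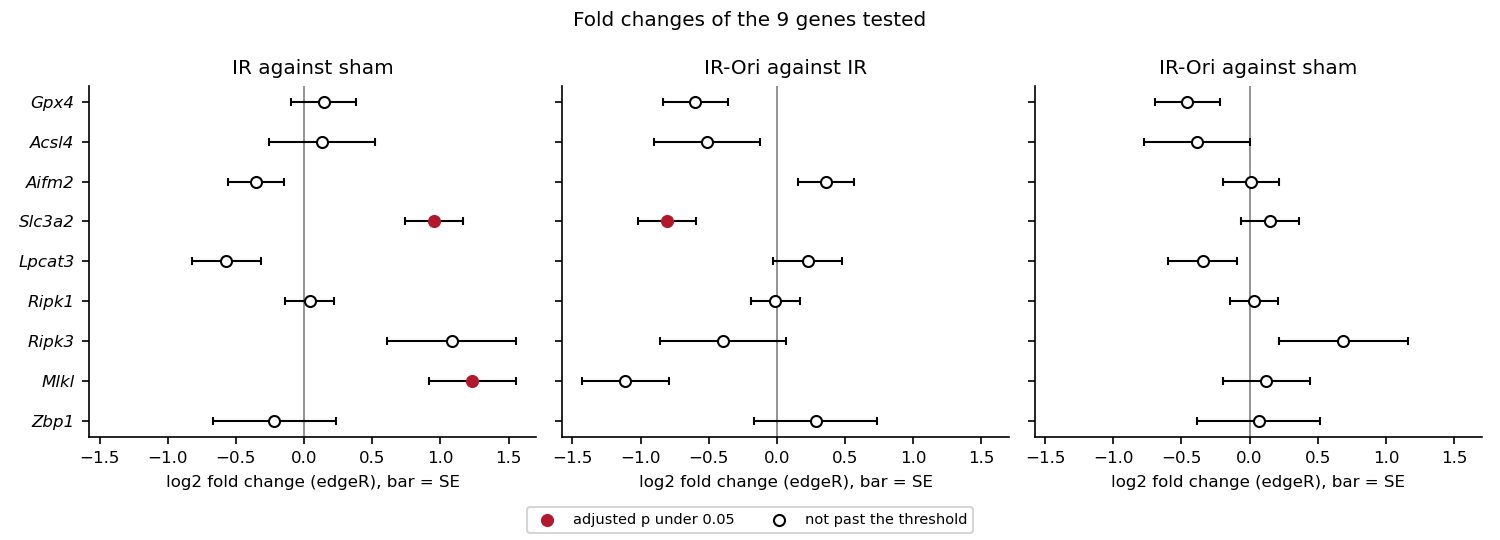
Log2 fold change from edgeR (horizontal axis) of the 9 genes tested in IR against sham, IR-Ori against IR and IR-Ori against sham livers, with bars of 1 SE. Filled points have an adjusted p under 0.05. Slc3a2 and Mlkl lie at 0.95 and 1.23 in the left panel and at -0.81 and -1.11 in the middle panel, where only Slc3a2 is filled, and no point is filled in the right panel.

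Per length, the order of mean levels over the 18 libraries began with Gpx4, which was above Lpcat3 in 18 of 18 libraries. The order of Slc3a2, Acsl4 and Aifm2 differed between the groups. In IR-Ori livers Aifm2 was above Slc3a2 in 6 of 6 libraries and Slc3a2 above Acsl4 in 5 of 6. In IR livers Slc3a2 was above Acsl4 in 5 of 6 libraries and Acsl4 above Aifm2 in 5 of 6. In sham livers Acsl4 was above Aifm2 in only 2 of 6 libraries and Aifm2 above Slc3a2 in 5 of 6. Aifm2 was above Ripk1 in 18 of 18 libraries and Ripk1 above Mlkl in 16. In IR livers the mean of Mlkl, 5.18 FPKM, was above that of Ripk1, 4.62 FPKM, although Mlkl was the higher in only 2 of 6 libraries. Mlkl was above Zbp1 in only 8 of 18 libraries. Zbp1 was above Ripk3 in 16 and Ripk3 above Ptgs2 in 17 of 18 libraries. The ferroptosis genes other than Ptgs2 thus stood above the 4 necroptosis genes by mean FPKM.

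The level of 4 members moved with the mitochondrial share of the library inside the groups. Over all tested genes 42.9% were called in this test, 19.9% higher and 23.0% lower, so 4 of 9 is near the background. Zbp1 was higher by 0.64 ± 0.10 (log2, SE) for each 10 points of mitochondrial share (edgeR adjusted p = 0.000111). Acsl4, Gpx4 and Lpcat3 were lower, with changes of -0.52 ± 0.10, -0.32 ± 0.06 and -0.25 ± 0.07 on the same scale and edgeR adjusted p of 0.000371, 0.000377 and 0.0115. Slc3a2 and Mlkl had -0.17 ± 0.07 and 0.05 ± 0.13, with edgeR adjusted p of 0.0676 and 0.769. These values are relative to the other counts after TMM scaling. With the mitochondrial genes removed before the fit, 4 members were called as well, 1 higher and 3 lower. The part of dilution by the mitochondrial counts in these values was not tested. What sets the mitochondrial share of a library was not tested.

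**Figure D4:**
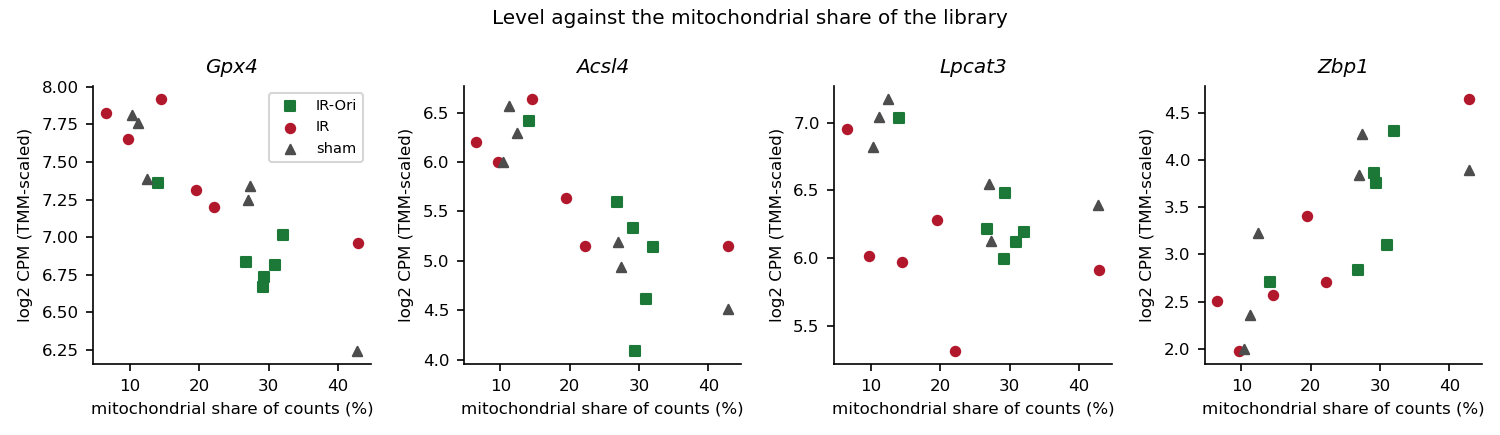
Log2 CPM, counts scaled to the library size by TMM (vertical axis, a separate scale per gene), of the 4 genes called in the test of the mitochondrial share, against the mitochondrial share of counts in percent (horizontal axis), for the 18 libraries. Gpx4, Acsl4 and Lpcat3 are lower and Zbp1 is higher in libraries with a larger share. For Gpx4, the IR-Ori libraries at 26.8% to 32.0% lie at 6.67 to 7.02. Sham replicates 5 and 6, at 27.4% and 27.0%, lie at 7.34 and 7.25.

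With the share as a covariate, IR against sham livers had the calls of Slc3a2 (0.89 on the log2 scale, edgeR adjusted p = 0.0056), Mlkl (1.27, adjusted p = 0.0169) and Lpcat3. IR-Ori against IR livers then had no member called, with Slc3a2 at -0.64 (adjusted p = 0.0815) and Mlkl at -1.17 (adjusted p = 0.0783). Among libraries with a share under 15%, 3 from IR livers (replicates 4 to 6) and 3 from sham livers (replicates 1, 3 and 4), edgeR gave IR against sham log2 fold changes of 1.16 for Slc3a2, 2.00 for Mlkl and 2.47 for Ripk3, with adjusted p of 0.0270, 0.0389 and 0.0111. Among libraries with a share over 15%, 3 from IR and 3 from sham livers, they were 0.67, 0.48 and -0.12, and none of these was called, with adjusted p of 0.177 for Slc3a2 and 0.477 for Mlkl. The difference between these sets of libraries was not tested.

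The 9 neutrophil markers tested had a positive fold change in IR against sham livers and a negative one in IR-Ori against IR livers. Slc3a2, Mlkl, Gpx4, Acsl4, Ripk1 and Ripk3 had these signs too, and Aifm2, Lpcat3 and Zbp1 had the opposite ones. Only Slc3a2 and Mlkl among these members were called in a comparison, and the likeness in sign is a description. Of 9 monocyte and macrophage markers tested, 8 had a positive fold change in IR against sham livers and 1 in IR-Ori against IR livers. Of 10 neutrophil markers 9 were tested, of which 9 rose in IR livers and 3 were lower in IR-Ori livers. Of 10 monocyte and macrophage markers 9 were tested, of which 7 rose and 5 were lower. Over all tested genes 5.52% were called higher in IR than in sham livers and 3.01% lower in IR-Ori than in IR livers. Markers that are low outside IR livers may have passed the filter through that group, so these counts are a description. With oridonin DESeq2 called 7 of the 9 neutrophil markers lower, and in edgeR the call of Clec4d was lost in 5 and that of S100a9 in 6 of the 12 fits without a single IR-Ori or IR library. The summed level of the neutrophil list ran from 7.68 to 64.6 FPKM in IR-Ori livers, from 70.2 to 316 FPKM in IR livers and from 3.94 to 26.9 FPKM in sham livers. For the monocyte and macrophage list it ran from 5.70 to 9.62 FPKM in IR-Ori livers, from 13.2 to 52.7 FPKM in IR livers and from 3.17 to 7.61 FPKM in sham livers. IR replicate 5, the library with the highest Slc3a2 and Mlkl, held the highest value. The same library held the highest sums of the endothelial list, 63.6 FPKM, and of the stellate cell list, 55.0 FPKM. The neutrophil list was highest in IR replicate 4, at 316 FPKM against 144 FPKM in IR replicate 5, and the Kupffer cell list in IR replicate 6. No marker of these lists was at 0 in all libraries of a group. The Kupffer cell list, with 10 of 10 markers tested, had 0 called in either comparison and sums of 61.4 to 97.7 FPKM in IR-Ori livers, 56.6 to 121 FPKM in IR livers and 48.2 to 115 FPKM in sham livers. Endothelial markers had 3 of 10 called higher in IR livers. The part of these cells in the member results was not tested.

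Over the 18 libraries the genes whose log2 CPM (counts scaled to the library size) were most like those of Slc3a2 were Emp1, Efhd2 and Mkrn1, with Pearson correlations of 0.941, 0.941 and 0.936. For Mlkl they were Myo9b, Hgs and Wdr73, at 0.879, 0.868 and 0.865. Slc3a2 and Mlkl themselves had a correlation of 0.759 over the 18 libraries and of 0.470 after the group means were removed. These correlations are descriptions, since the libraries share their groups, depth and mitochondrial share.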

How the data were processed

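Liver RNA of 18 libraries was sequenced after library preparation with a kit named in the labels. The submitters' processing notes name cutadapt 1.9.1, HISAT2 2.2.1, the build GRCm39 and, with no version, DESeq2. How reads were counted, with which annotation and with what strand setting, is not given in the sources used here. Columns of the deposited table hold whole-number counts per gene, not scaled by the authors, and FPKM made by the authors, of which 100% were recomputed within 0.0051 from count, exonic size and library total. No 2 libraries were identical.

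The count test was edgeR 4.0.16 under R 4.3.3 (TMM scaling, filterByExpr with a minimum count of 10 and a minimum total of 15, which left 14595 of 56691 genes, 1 quasi-likelihood fit to all 18 libraries with a group factor, 15 residual degrees of freedom, threshold 0.05). Standard errors are the log2 fold change over the square root of F. The mitochondrial share was tested in the same fit with the share as a second term. Alternatives were DESeq2 1.42.0, limma 3.58.1 on log2(FPKM + 1) and log2(FPKM + 0.1), other filters and scalings, a covariate, a replicate block and leaving out single libraries. The edgeR step alone was tried on simulated counts, for IR-Ori against IR. Of 200 genes changed by 2 on the log2 scale 169 were recovered, with 5 false calls. Log2 CPM for likeness and plots used a prior count of 2.

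The members and gene lists were chosen with earlier results of these data known. Genes named are the 10 members, a fixed set of partners, up to 4 called genes of smallest p per list and comparison, and the 3 genes most like each called member. Promoters came from RefSeq on GRCm38.p6 by symbol, and 9 of the 10 members had an entry. The overall spread between libraries, a biological coefficient of variation of 0.3984, limits the precision, and in genes of few counts such as Ptgs2 and Slc7a11 counting error does too.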

Additional observations from a re-analysis of the deposited data

Results flagged for a closer look

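Among 30 sets of 6 libraries (10 genes in 3 groups), 6 held a highest or lowest library whose gap to the nearest other library, divided by the range, was above Dixon's critical value for 6 samples. For normally distributed values chance flags about 1 in 20 sets. FPKM need not be normal and the sets share libraries, so 6 of 30 cannot be set against that rate. Slc3a2 was 11.64 FPKM in IR-Ori replicate 4, with the next library at 8.16 FPKM, and 31.07 FPKM in IR replicate 5, with the next at 15.25 FPKM. The same IR replicate 5 held the highest Mlkl, 13.22 FPKM, with the next at 4.78 FPKM. Ptgs2 was 2.76 FPKM in IR replicate 1, with the next at 0.53 FPKM. Aifm2 was lowest in IR replicate 1 at 5.18 FPKM, with the next at 7.40 FPKM, and highest in sham replicate 1 at 14.59 FPKM, with the next at 8.81 FPKM.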

How the results depend on the processing

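Of the log2 fold changes of the members under the alternatives, 574 kept their direction and side of the threshold, 53 of uncalled genes changed sign, 25 lost and 5 gained a call, and no called value changed sign. Members called in IR against sham livers numbered 2, and were 1 in a fit to only these groups, 1 with the replicate block, 0 in limma without a filter and 0 in libraries with a mitochondrial share over 15%. For IR-Ori against IR livers the count was 1, and was 2 in DESeq2 and 0 in limma (pseudocounts 1 and 0.1, and no filter), the fit to 2 groups, the replicate block, the covariate and the libraries over 15%. Without single libraries these counts ran from 1 to 3 and from 0 to 2, and were 0 for IR-Ori against sham livers. They include Ptgs2 wherever it passes the filter: without IR-Ori replicate 1, 2, 3, 5 or 6 or IR replicate 6 the 1 member called in IR-Ori against IR livers was Ptgs2 and not Slc3a2. With no filter it was likewise Ptgs2, and Slc3a2 had -0.80 (adjusted p = 0.0611). Over all genes, IR against sham livers had 1151 calls, and 1818 in DESeq2, 594, 602 and 367 in limma (pseudocounts 1 and 0.1, and no filter), 644 with the replicate block, 1875 with the covariate and 117 over 15%, with 581 to 1560 without single libraries. IR-Ori against IR livers had 526, and 1335 in DESeq2, 133, 104 and 68 in limma, 172 in the fit to 2 groups, 163 with the block, 290 with the covariate and 7 over 15%, with 152 to 1056 without single libraries. IR-Ori against sham livers had 0, and 38 in DESeq2. In the test of the mitochondrial share, limma called 6 members against 4. Differences in mean share without single libraries ran from -7.38 to 1.54 points in IR against sham, 5.32 to 12.6 in IR-Ori against IR and 2.91 to 9.40 in IR-Ori against sham livers, and the exact permutation p in IR-Ori against IR livers was 0.0195 without IR replicate 1. The libraries under and over 15% were an alternative chosen after earlier results were known. In limma without a filter more genes are tested, and in the fits to subsets fewer libraries are used; for the rest the cause was not tested. Correlations between the deviations of same-numbered libraries ran from -0.441 to 0.335 in IR against sham, 0.012 to 0.418 in IR-Ori against IR (4 of 6 over 0.1) and -0.36 to 0.302 in IR-Ori against sham livers; not every pair was over 0.1 in any comparison, so the numbers were not taken as pairs. With the replicate block, Slc3a2 in IR-Ori against IR (adjusted p = 0.0689) and Mlkl in IR against sham livers (0.0532) were not called. Ptgs2 and Slc7a11 had few counts. Calls of partners in IR-Ori against IR livers were also lost in alternatives other than leaving out single libraries. These alternatives numbered 7 for Sat1, 6 each for Gclc and Alox5ap, and 5 each for Chac1 and Chmp4b. For Slc7a11 they numbered 2 and for Hsp90aa1 1.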
